A study of Mus musculus with 6 samples.

Results

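Syndecans and glypicans are the 2 families of proteoglycans that carry heparan sulfate at the cell surface. The 9 family members described here, 4 syndecans (Sdc1, Sdc2, Sdc3 and Sdc4) and 5 glypicans (Gpc1, Gpc2, Gpc3, Gpc4 and Gpc6), were chosen by name and found by gene identifier among the 22032 genes of the deposited table. Gpc5 was not analysed here. The cells were mDE6, a mouse line, expressing a short hairpin RNA against Arl4c (shArl4c, 3 libraries) or a control hairpin (shControl, 3 libraries). Arl4c encodes an ARF-like GTPase, and the series places it in tooth germ development and osteoblastic differentiation. The labels name a single Arl4c hairpin group and give neither the tissue of origin of the line nor the hairpin sequences. Whether a group's libraries were grown as separate cultures is not said, so the p-values speak to library spread alone, which may be technical. With that design, consequences of lower Arl4c and off-target action of the hairpin cannot be told apart.

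A syndecan is a core protein that spans the membrane, with a short cytoplasmic tail that binds PDZ-domain proteins such as syntenin. A glypican is a globular core protein held on the outer face of the membrane by a GPI anchor. Both carry heparan sulfate, a sulfated sugar chain that binds growth factors, morphogens and chemokines and presents them to their receptors. The chain is started on a linkage sugar, extended by exostosins, and then sulfated and epimerized in the Golgi. In skeletal and dental tissues these proteoglycans are known as regulators of FGF, Wnt, BMP and Hedgehog signalling.

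Values were deposited as CPM (reads scaled to library size, with a factor per library). Turned back into reads they gave 12316770 to 14976113 per library, and 1 read was worth 0.0672 to 0.0827 CPM. Libraries are called by the numbers in the deposited table, shArl4c 2, 3 and 4 and shControl 1, 2 and 3. Library shArl4c 3 stood apart: compared over genes with libraries 2 and 4 of its group, its reads gave a chi-square divided by degrees of freedom of 5.74 and 4.87. The same measure was 1.54 between shArl4c 2 and 4, and 1.78 to 2.30 among the shControl pairs. Arl4c had 6.75, 7.42 and 6.89 CPM in the shArl4c libraries, against 20.7, 21.0 and 20.1 CPM in the shControl libraries, 2.94-fold lower in shArl4c. The summed level of 6 mesenchymal markers (Vim, Col1a1, Col1a2, Col3a1, Twist1 and Prrx1) was 18441 to 19297 CPM in shArl4c and 31209 to 32620 CPM in shControl. Of these, Col1a1, Col1a2, Col3a1 and Prrx1 fell, while Vim (2444 ± 164 CPM in shArl4c and 2543 ± 51.6 CPM in shControl) and Twist1 (45.4 ± 4.09 and 42.7 ± 1.41 CPM in the same order) did not pass. Of the 6 epithelial markers, 5 were in the table and summed to at most 2.25 CPM in any library. The E-cadherin gene Cdh1 had 0 reads in all 3 shArl4c libraries and 4, 5 and 4 reads in shControl 1, 2 and 3. Krt5 and Krt18 also had lower means in shArl4c, while Krt14 and Krt8 had higher ones. Each of the 5 averaged under 1 CPM over all libraries and was not tested. The 5 leukocyte markers summed to 9.29 to 10.6 CPM in shArl4c and 6.87 to 8.05 CPM in shControl. Only Cd68 among them rose, 2.07-fold. Lyz2 and Csf1r did not pass, Ptprc and Cd74 averaged under 1 CPM and were not tested, and none of these had a higher mean in shArl4c. Of the endothelial markers, 2 of 3 were in the table and summed to 1.07 to 1.67 CPM in shArl4c and 1.08 to 1.74 CPM in shControl. The neuronal marker Tubb3 fell 1.86-fold, with 4.67 to 4.86 CPM in shArl4c and 7.82 to 9.60 CPM in shControl. The part of these markers in the results below was not tested. In bulk RNA, fewer cells of a type and less RNA per cell cannot be told apart.

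Most members were lower in shArl4c, and 1 was higher. Of the 8 members that reached a mean of 1 CPM and were tested, 6 fell, Sdc4 rose and Sdc1 did not pass (limma on log2(CPM + 1), adjusted p under 0.05 over 14740 genes). Over all genes tested 36.9% changed, 18.9% higher and 18.0% lower in shArl4c. The median log2 fold change was -0.48 over the 8 members and 0.01 over all genes tested. The groups did not overlap for 7 of the 8 members, as for 46.8% of all genes tested. Each of the 8 had at least 15.3 CPM in every library, so none was tested only because of 1 group. The quasi-likelihood test of edgeR on the recovered reads also called 7 of the 8, where it called 36.5% of all genes.

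**Figure D1:**
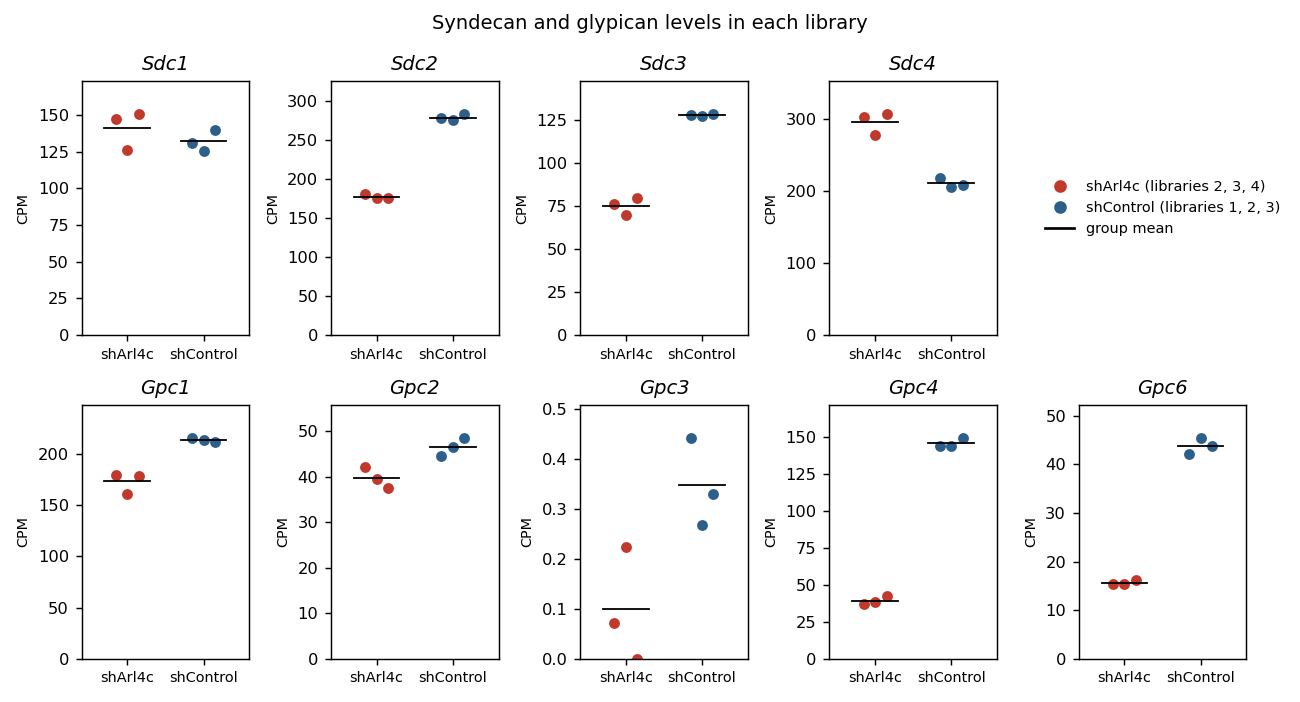
CPM of each syndecan (top row) and glypican (bottom row) in every library, with 1 point per library and a line at each group mean; each panel has its own axis from 0. The shArl4c points lie below all shControl points for Sdc2, Sdc3 and the 5 glypicans and above them for Sdc4. For Sdc1, shArl4c 3 lies among the shControl points and the other two shArl4c libraries lie above them.

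Gpc4 had the largest fall among the members. Its product is a glypican that takes part in Wnt signalling and cell movements in fish and frog embryos. Gpc4 had 37.2, 38.5 and 42.5 CPM in shArl4c 2, 3 and 4, against 144, 144 and 150 CPM in shControl 1, 2 and 3. All shArl4c libraries were far below all shControl libraries. The means were 39.4 ± 2.78 CPM in shArl4c and 146 ± 3.14 CPM in shControl (SD, n = 3 each), 3.71-fold lower in shArl4c. The log2 fold change of CPM + 1 was -1.87 (SE 0.05, limma adjusted p = 1.67e-15), and 99 of the 14740 genes tested had a lower one.

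Gpc6 fell next. Its loss causes a skeletal dysplasia with short limbs in humans, and in mouse growth plates its product promotes Hedgehog signalling. Gpc6 had 15.3, 15.3 and 16.1 CPM in shArl4c 2, 3 and 4, against 42.1, 45.5 and 43.9 CPM in shControl 1, 2 and 3. The lowest shControl library was above every shArl4c library. Gpc6 averaged 15.6 ± 0.487 CPM in shArl4c and 43.8 ± 1.65 CPM in shControl, 2.81-fold lower in shArl4c (log2 fold change -1.43, SE 0.07, limma adjusted p = 2.58e-12).

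Gpc1 and Gpc2 fell by less. Gpc1, a widely expressed glypican that acts as a co-receptor for FGF2, had 180, 161 and 179 CPM in shArl4c 2, 3 and 4, against 215, 213 and 212 CPM in shControl 1, 2 and 3. Library shArl4c 3 was the lowest, and the groups did not overlap. Gpc1 was 1.23-fold lower in shArl4c (log2 fold change -0.30, SE 0.05, limma adjusted p = 2.83e-05). Gpc2, a glypican known from developing neurons, had 42.1, 39.4 and 37.6 CPM in shArl4c 2, 3 and 4, against 44.6, 46.5 and 48.5 CPM in shControl 1, 2 and 3. The groups lay close together without overlap. The log2 fold change of Gpc2 was -0.22 (SE 0.06, limma adjusted p = 0.00623), the smallest among the members that passed.

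Gpc3, which restrains Hedgehog signalling in mice and whose loss causes an overgrowth syndrome in humans, was almost unread. It had 1, 3 and 0 reads in shArl4c 2, 3 and 4, against 6, 4 and 4 reads in shControl 1, 2 and 3. With 0 reads, as many as 3 cannot be told from none, which is 0.230 CPM in shArl4c 4 (counting error only). Gpc3 was below the filter and was not tested. With no filter on low values its adjusted p by limma was 0.0688.

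Among the syndecans, Sdc2 and Sdc3 fell while Sdc4 rose. Sdc2, the syndecan typical of mesenchymal cells, had 181, 175 and 175 CPM in shArl4c 2, 3 and 4, against 277, 275 and 283 CPM in shControl 1, 2 and 3. The groups were well apart, with little spread inside either. Sdc2 averaged 177 ± 3.37 CPM in shArl4c and 278 ± 3.80 CPM in shControl (SD, n = 3 each), 1.57-fold lower in shArl4c. The log2 fold change was -0.65 (SE 0.04, limma adjusted p = 1.21e-10).

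Sdc3, known from neural tissue and muscle progenitors, had 76.0, 69.6 and 79.9 CPM in shArl4c 2, 3 and 4, against 128, 127 and 128 CPM in shControl 1, 2 and 3. Its shArl4c libraries varied more than its shControl libraries, yet all lay below them. Sdc3 was 1.70-fold lower in shArl4c (log2 fold change -0.76, SE 0.05, limma adjusted p = 4.35e-10).

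Sdc4 encodes the widely expressed syndecan of focal adhesions, which works with integrins and activates protein kinase C alpha. It had 304, 278 and 307 CPM in shArl4c 2, 3 and 4, against 218, 206 and 209 CPM in shControl 1, 2 and 3. All shArl4c libraries were higher, with shArl4c 3 the nearest to shControl. Sdc4 averaged 296 ± 15.9 CPM in shArl4c and 211 ± 6.08 CPM in shControl, 1.40-fold higher in shArl4c. The log2 fold change was 0.49 (SE 0.05, limma adjusted p = 5.32e-08), and 822 of the genes tested had a higher one.

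Sdc1, the syndecan typical of epithelia and plasma cells, had 147, 126 and 151 CPM in shArl4c 2, 3 and 4, against 131, 125 and 140 CPM in shControl 1, 2 and 3. The groups overlapped because shArl4c 3 lay within the shControl range. The log2 fold change was 0.09 with a 95% interval of -0.05 to 0.24 (limma adjusted p = 0.315). This call rested on shArl4c 3: without that library the log2 fold change was 0.17 with a limma adjusted p of 0.000523, and all 8 tested members passed. More genes passed in general without that library, 6625 over all genes against 5445 with every library kept.

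**Figure D2:**
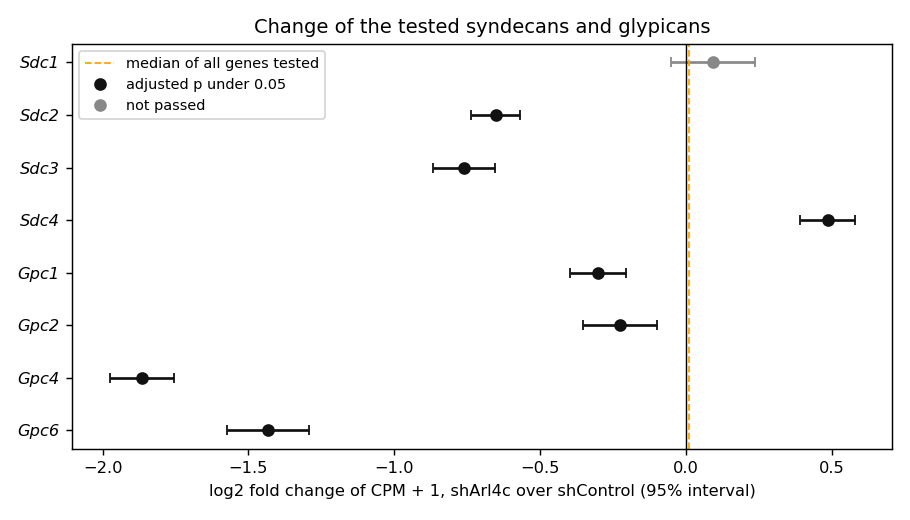
Log2 fold change of CPM + 1, shArl4c over shControl, for the 8 tested members, with bars for the 95% interval from limma and a dashed line at the median of all genes tested. Gpc4 (-1.87) and Gpc6 (-1.43) lie farthest below 0, Sdc4 (0.49) lies above it, and the interval of Sdc1 crosses it.

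The bases upstream of the start are shown for the members with the largest changes among those with an entry in the RefSeq promoter table, Gpc4 and Sdc3, which fell, and Sdc4, which rose. The table held 6 of the 9 members (Sdc1, Sdc3, Sdc4, Gpc2, Gpc3 and Gpc4). For Gpc3 alone, the bases just after the start were not found in an annotated transcript of the gene, so its window is less certain. Each window is the 250 bases before the RefSeq start, read 5′ to 3′ on the strand of the gene in build GRCm38.p6, which is older than the build of the expression table. The windows lie at chrX:52164924-52165173 on the minus strand for Gpc4, at chr4:130792287-130792536 on the plus strand for Sdc3, and at chr2:164443189-164443438 on the minus strand for Sdc4. Capitals mark matches, on either strand, to the 6 motifs named after the sequences.
Gpc4: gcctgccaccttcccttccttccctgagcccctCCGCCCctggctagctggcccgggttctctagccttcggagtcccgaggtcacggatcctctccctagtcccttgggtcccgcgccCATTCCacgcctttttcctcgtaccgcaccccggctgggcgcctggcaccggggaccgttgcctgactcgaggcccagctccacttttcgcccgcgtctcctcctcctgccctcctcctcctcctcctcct
Sdc3: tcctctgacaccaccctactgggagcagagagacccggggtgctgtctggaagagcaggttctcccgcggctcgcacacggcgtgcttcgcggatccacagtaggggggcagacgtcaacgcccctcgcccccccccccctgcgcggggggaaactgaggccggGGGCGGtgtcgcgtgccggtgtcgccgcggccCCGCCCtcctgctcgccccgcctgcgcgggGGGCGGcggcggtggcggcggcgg
Sdc4: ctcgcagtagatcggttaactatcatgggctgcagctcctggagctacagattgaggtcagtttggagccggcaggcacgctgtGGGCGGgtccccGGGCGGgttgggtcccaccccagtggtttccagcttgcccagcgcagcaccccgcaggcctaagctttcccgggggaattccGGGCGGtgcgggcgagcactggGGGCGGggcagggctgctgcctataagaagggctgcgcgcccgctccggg

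The motifs searched were the GC box (GGGCGG), the CCAAT box (CCAAT), the TATA box (TATAAA), the TEAD motif (GGAATG), the AP-1 motif (TGANTCA) and an E-box (CACGTG), on both strands. The GC box was found in all 6 member windows, with 4 matches for Sdc4, 3 for Sdc3 and 1 for Gpc4, and in 32.7% of all 32851 windows in the table. GC content was 66.0% to 76.4% in the member windows, against a median of 52.4% over all windows. The TEAD motif was found in the window of Gpc4 and in none of the other 5, and in 12.6% of all windows. The CCAAT box was found for Sdc1, Gpc2 and Gpc3 and in 33.9% of all windows. None of the 6 windows held the letters of the TATA box (12.4% of all windows), the AP-1 motif (6.75%) or the E-box (6.02%). No 2 matches overlapped in these windows. A match describes the letters and does not show that a factor binds there.

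Dividing CPM by transcript length allowed levels of different members to be compared. With the mean length of each gene's annotated transcripts, the order in shArl4c was Sdc4 (182 ± 9.77 CPM per kb), Gpc1 (127 ± 7.75), Sdc1 (96.7 ± 9.19), Sdc2 (50.1 ± 0.955), Sdc3 (44.6 ± 3.10), Gpc2 (15.7 ± 0.902), Gpc4 (14.9 ± 1.05), Gpc6 (5.32 ± 0.166) and Gpc3 (0.0484 ± 0.0560). In shControl the order was Gpc1 (157 ± 1.32 CPM per kb), Sdc4 (130 ± 3.73), Sdc1 (90.4 ± 4.99), Sdc2 (79.0 ± 1.08), Sdc3 (75.8 ± 0.352), Gpc4 (55.1 ± 1.19), Gpc2 (18.4 ± 0.772), Gpc6 (14.9 ± 0.565) and Gpc3 (0.170 ± 0.0430). Gpc2 and Gpc4, neighbours in shArl4c, differed by less than their spread. The order depended on the length used: Sdc4 led in shArl4c with all 3 lengths tried, whereas the first in shControl was Gpc1 with the mean length, Sdc4 with the longest transcript and Sdc2 with the coding length. For Gpc1 the mean length was 1358.8 bases, shorter than its longest coding sequence of 1671 bases. Its level per kb, rank and share with the mean length may therefore be too high. Gpc6 and Gpc3 were the last in both groups with each length.

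The syndecans kept a similar summed level with a different make-up, and the glypicans had a lower sum. Summed over the 4 syndecans, the level was 384, 348 and 389 CPM per kb in shArl4c 2, 3 and 4, against 378, 366 and 380 CPM per kb in shControl 1, 2 and 3. The shArl4c libraries lay on both sides of the shControl range, with shArl4c 3 lowest and shArl4c 2 and 4 above the range. The syndecan sum in shArl4c was 0.996 of that in shControl, and 1.03 without shArl4c 3. It was 0.992 with the longest transcript and 0.948 with the coding length. Summed over the 5 glypicans, the level was 168, 154 and 168 CPM per kb in shArl4c, against 245, 245 and 247 CPM per kb in shControl. The groups were apart, and the sum in shArl4c was 0.665 of that in shControl, or 0.543 with the longest transcript and 0.594 with the coding length.

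Sdc4 made up 48.8% ± 0.309 of the summed syndecan level in shArl4c and 34.6% ± 0.849 in shControl (SD, n = 3 each). Its share was 52.3% in shArl4c and 36.9% in shControl with the longest transcript, and 49.9% and 33.7% in the same order with the coding length. Sdc2 made up 13.5% ± 0.756 in shArl4c and 21.1% ± 0.267 in shControl, and Sdc3 11.9% ± 0.228 and 20.2% ± 0.325 in the same order. Of the summed glypican level, Gpc4 made up 9.11% ± 0.660 in shArl4c and 22.4% ± 0.409 in shControl, while Gpc1 made up 78.0% ± 0.871 in shArl4c and 63.9% ± 0.733 in shControl. The size of these shares depended on the length. With the longest transcript Gpc4 made up 21.4% in shArl4c and 43.1% in shControl, and Gpc1 59.6% and 39.98% in the same order. With that length Gpc4, not Gpc1, had the largest glypican share in shControl. Gpc1 made up 64.998% in shArl4c and 47.7% in shControl with the coding length. Sdc2 made up 21.8% in shArl4c and 34.0% in shControl with the longest transcript, and 29.3% in shArl4c and 43.7% in shControl with the coding length. With the coding length Sdc2, not Sdc4, had the largest syndecan share in shControl. Sdc3 made up 5.67% in shArl4c and 9.16% in shControl with the coding length. The direction of the difference was the same with each length for Sdc2, Sdc3, Sdc4, Gpc1 and Gpc4.

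Ratios between members within a library do not depend on how libraries were scaled, and their change does not depend on length. The Sdc4 to Sdc2 ratio of levels per kb was 3.64, 3.44 and 3.81 in shArl4c 2, 3 and 4, against 1.703, 1.624 and 1.5995 in shControl 1, 2 and 3. All shArl4c values were above all shControl values, and the mean ratio was 2.21-fold higher in shArl4c. The Gpc4 to Gpc6 ratio was 2.69, 2.78 and 2.91 in shArl4c, against 3.78, 3.51 and 3.77 in shControl, so Gpc4 fell by more than Gpc6 in each shArl4c library. For each ratio the two-sided exact permutation test gave p = 0.10, the smallest that 3 libraries against 3 allow. The pairs were chosen after their values were seen.

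**Figure D3:**
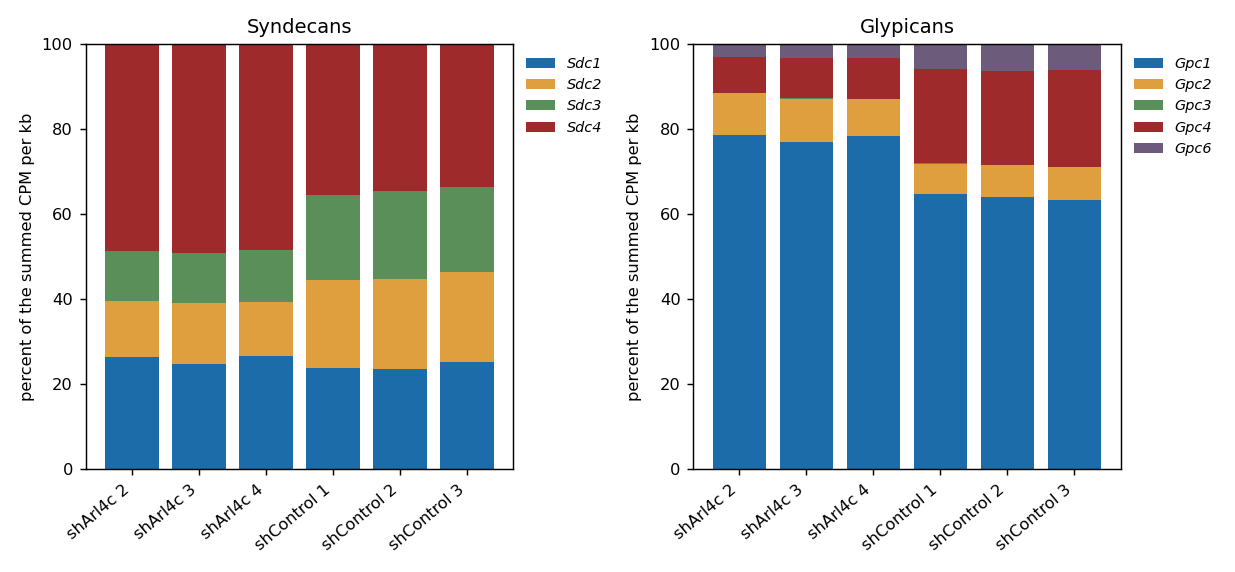
Share of each member in the summed CPM per kb of the syndecans (left) and of the glypicans (right), 1 bar per library, with shArl4c libraries left of shControl libraries. The Sdc4 share was 48.5% to 49.1% in shArl4c and 33.7% to 35.4% in shControl, and the Gpc4 share 8.35% to 9.56% in shArl4c and 22.2% to 22.9% in shControl.

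The genes whose pattern over the 6 libraries was most like that of Gpc4, by Pearson correlation of log2 values among 11280 other genes averaging 5 CPM or more, were Adamts1, Pou6f1 and Plxdc2 (r above 0.99 for each). As many as 351 genes passed 0.99, and over 6 libraries in 2 groups the measure mostly reads the difference between groups. Adamts1, encoding a matrix protease, had 83.9 ± 3.71 CPM in shArl4c and 202 ± 0.516 CPM in shControl. Plxdc2 had 8.70 ± 0.963 CPM in shArl4c and 72.1 ± 5.36 CPM in shControl. Pou6f1, a homeobox transcription factor gene, had 35.9 ± 0.421 CPM in shArl4c and 45.6 ± 0.300 CPM in shControl.

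Other proteoglycans that carry heparan sulfate went both ways. Of 6 tested (median log2 fold change -0.07), 2 rose, 2 fell and 2 did not pass. Beside the counts of this list and those below, 36.9% of all genes tested changed, 18.9% higher and 18.0% lower in shArl4c. Nrp1, a co-receptor of semaphorins and VEGF, rose 1.96-fold to 143 ± 3.71 CPM in shArl4c, against 72.9 ± 2.25 CPM in shControl. Tgfbr3, betaglycan, rose 1.43-fold, with 327 ± 12.1 CPM in shArl4c and 228 ± 6.49 CPM in shControl. Hspg2, perlecan of the basement membrane, fell 1.47-fold, with 1157, 1360 and 1220 CPM in shArl4c 2, 3 and 4, against 1771, 1861 and 1846 CPM in shControl 1, 2 and 3. Here shArl4c 3 was the highest of its group.

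Of the 7 enzymes of the linkage sugar that starts the chain (median -0.04), 1 fell, 1 rose and 5 did not pass. Xylt1, a xylosyltransferase that adds the first sugar to the core protein, had 13.8 ± 0.328 CPM in shArl4c and 16.9 ± 1.37 CPM in shControl (log2 fold change -0.27, limma adjusted p = 0.0186). Pxylp1, which removes a phosphate from that sugar, had 25.8 ± 0.311 CPM in shArl4c and 22.3 ± 1.11 CPM in shControl (log2 fold change 0.20, limma adjusted p = 0.0272). These calls were marginal: 1 gene passed without shArl4c 2, shArl4c 4 or any 1 of the shControl libraries, and 3 passed without shArl4c 3.

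Genes that extend the chain went both ways. Of 5 tested (median 0.09), 2 rose, 2 fell and 1 did not pass. Ext1 and Ext2, which together form the polymerase, moved in opposite directions. Ext1 had 230, 221 and 221 CPM in shArl4c 2, 3 and 4, against 196, 196 and 198 CPM in shControl 1, 2 and 3 (log2 fold change 0.18, limma adjusted p = 0.000988). Ext2 had 114, 103 and 111 CPM in shArl4c, against 127, 125 and 120 CPM in shControl (log2 fold change -0.18, limma adjusted p = 0.00487). Neither gene's groups overlapped. Extl2 rose 1.20-fold. Extl1, with low levels of 1.12 ± 0.268 CPM in shArl4c and 2.42 ± 0.138 CPM in shControl, fell 2.17-fold (log2 fold change -0.70, limma adjusted p = 0.0023).

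Of the 8 tested genes that sulfate or epimerize the chain (median -0.05), 3 fell and 5 did not pass. Glce, the C5-epimerase that turns glucuronic into iduronic acid, had 74.7, 67.2 and 81.3 CPM in shArl4c 2, 3 and 4, against 132, 131 and 143 CPM in shControl 1, 2 and 3. Every shArl4c library was below every shControl library, and Glce was 1.82-fold lower in shArl4c (log2 fold change -0.86, SE 0.06, limma adjusted p = 2.86e-08). The abundant sulfotransferase genes did not pass: Ndst1 had 181 ± 5.05 CPM in shArl4c and 189.9 ± 3.11 CPM in shControl, Hs2st1 71.2 ± 2.53 and 67.7 ± 4.36 CPM, Hs6st1 58.8 ± 3.001 and 56.0 ± 1.73 CPM, and Hs6st2 99.1 ± 2.002 and 101 ± 1.58 CPM, each in the same order of groups.

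The 3-O-sulfotransferase genes Hs3st3a1 and Hs3st3b1, which add a rare late modification, fell and had low levels in both groups. Hs3st3a1 had 2.11, 2.10 and 2.22 CPM in shArl4c 2, 3 and 4, against 7.53, 7.46 and 7.53 CPM in shControl 1, 2 and 3, 3.51-fold lower in shArl4c. Hs3st3b1 had 1.379, 1.124 and 1.301 CPM in shArl4c, against 6.79, 6.86 and 8.11 CPM in shControl, 5.72-fold lower in shArl4c. Both passed (limma adjusted p = 4.18e-08 for Hs3st3a1 and 4.07e-09 for Hs3st3b1), on 15 to 29 reads per shArl4c library. These are closely similar genes, so how reads were split between them is uncertain. Ndst3, Hs6st3, Hs3st1 and Hs3st5 were below the filter, with at most 5 reads in any library, and Ndst4, Hs3st2, Hs3st4 and Hs3st6 were not analysed here.

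All 3 tested genes that edit the chain outside the cell changed, where 36.9% of all genes tested did. Sulf1 and Sulf2 encode sulfatases that remove 6-O-sulfates, and they moved in opposite directions. Sulf1 had 1.02, 0.600 and 1.53 CPM in shArl4c 2, 3 and 4, against 5.09, 5.72 and 6.45 CPM in shControl 1, 2 and 3 (log2 fold change -1.74, SE 0.17, limma adjusted p = 1.49e-07). The Sulf1 values in shArl4c rested on 14, 8 and 20 reads. Sulf2, at a much higher level per length, had 134, 128 and 138 CPM in shArl4c, against 110, 114 and 115 CPM in shControl (log2 fold change 0.24, limma adjusted p = 0.00026). Hpse, the heparanase that cuts the chain, rose 1.54-fold, with 13.6 ± 0.281 CPM in shArl4c and 8.80 ± 0.856 CPM in shControl.

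Of 11 tested genes for sulfate and sugar donors (median 0.01), 3 rose, 4 fell and 4 did not pass. The count of 7 was 4 without shControl 1 or without shControl 3. Bpnt2, a Golgi phosphatase that clears a by-product of sulfation, fell 1.38-fold to 133 ± 5.09 CPM in shArl4c, against 183 ± 3.40 CPM in shControl. The sulfate transporter gene Slc26a2 fell 1.27-fold, while Ugdh, which makes UDP-glucuronic acid, rose 1.23-fold. For chondroitin and dermatan sulfate, which share the linkage sugar, 6 of 15 tested genes (median -0.18) fell and 9 did not pass. Chst12 led these by p, 1.62-fold lower with 60.9 ± 1.89 CPM in shArl4c and 98.9 ± 1.33 CPM in shControl.

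Of the 11 tested partners of the syndecan tail (median -0.02), 3 rose, 3 fell and 5 did not pass. Ezr, encoding ezrin, which links membrane proteins to actin, had 80.1, 75.8 and 80.4 CPM in shArl4c 2, 3 and 4, against 39.4, 38.5 and 39.4 CPM in shControl 1, 2 and 3, 2.01-fold higher in shArl4c (limma adjusted p = 1.22e-11). Prkca, encoding the kinase that Sdc4 activates, was also higher in all shArl4c libraries, with 138 ± 1.53 CPM in shArl4c and 113 ± 1.09 CPM in shControl. Arf6, a GTPase of syndecan recycling, rose 1.16-fold (limma adjusted p = 0.00949). Actn1, Cask and Gipc1 fell 1.24-fold, 1.14-fold and 1.12-fold. The call of Gipc1 was marginal (limma adjusted p = 0.0442) and was lost with DESeq2 (adjusted p = 0.175). The count of 6 was 4 without shArl4c 4, without shControl 1 or without shControl 3. Sdcbp, encoding syntenin, had 125 ± 5.62 CPM in shArl4c and 127 ± 6.96 CPM in shControl and did not pass.

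Proteases and convertases that act on core proteins went both ways. Of 12 tested sheddases, convertases and lipases (median -0.01), 3 rose, 4 fell and 5 did not pass. Mmp16, a membrane-bound metalloprotease, fell 4.51-fold, with 4.89 ± 0.770 CPM in shArl4c and 22.1 ± 0.521 CPM in shControl. The convertase gene Pcsk6 fell 2.33-fold, with 26.3 ± 1.83 CPM in shArl4c and 61.2 ± 4.61 CPM in shControl, and Mmp14 fell 1.56-fold. Mmp3, a secreted metalloprotease, rose 4.002-fold, with 5.81 ± 0.704 CPM in shArl4c and 1.45 ± 0.690 CPM in shControl. Notum, Gpld1 and Gde1 of the same list did not pass (limma adjusted p = 0.0865 for Notum, 0.850 for Gpld1 and 0.692 for Gde1). Gpld1, which encodes an enzyme that cuts the GPI anchor, had low levels, with 13 to 26 reads per library. Whether release of glypicans from the anchor changed was not tested. Of 5 GPI transamidase genes, whose products attach the anchor of glypicans, Gpaa1 and Pigt rose 1.20-fold each and 3 did not pass.

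Among 13 tested growth factors and chemokines that bind heparin (median 0.10), 5 rose, 4 fell and 4 did not pass. Ptn, pleiotrophin, for which syndecans are known receptors, had 11.6, 10.9 and 12.7 CPM in shArl4c 2, 3 and 4, against 85.8, 79.9 and 79.5 CPM in shControl 1, 2 and 3, 6.97-fold lower in shArl4c (limma adjusted p = 3e-16). Rspo2, an enhancer of Wnt signalling, fell 3.28-fold, with 46.2 ± 1.28 CPM in shArl4c and 151 ± 3.15 CPM in shControl. Igfbp5 fell 5.32-fold. Among those that rose, Hgf, the hepatocyte growth factor gene, had 4.56 ± 0.418 CPM in shArl4c and 0.861 ± 0.177 CPM in shControl, 5.30-fold higher in shArl4c (limma adjusted p = 1.36e-07). Hgf had only 9, 15 and 11 reads in shControl 1, 2 and 3. Its shControl mean was below 1 CPM, so it reached the filter only through shArl4c, and the size of its fold is uncertain. Pdgfb, a platelet-derived growth factor gene, rose 3.25-fold, with 11.1 ± 1.05 CPM in shArl4c and 3.43 ± 0.125 CPM in shControl. The groups did not overlap for 12 of the 13 tested genes of this list, against 46.8% of all genes tested. These 12 include genes that did not pass. In the other lists this count ran from 2 of the 7 linkage genes to all 3 tested genes that edit the chain.

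**Figure D4:**
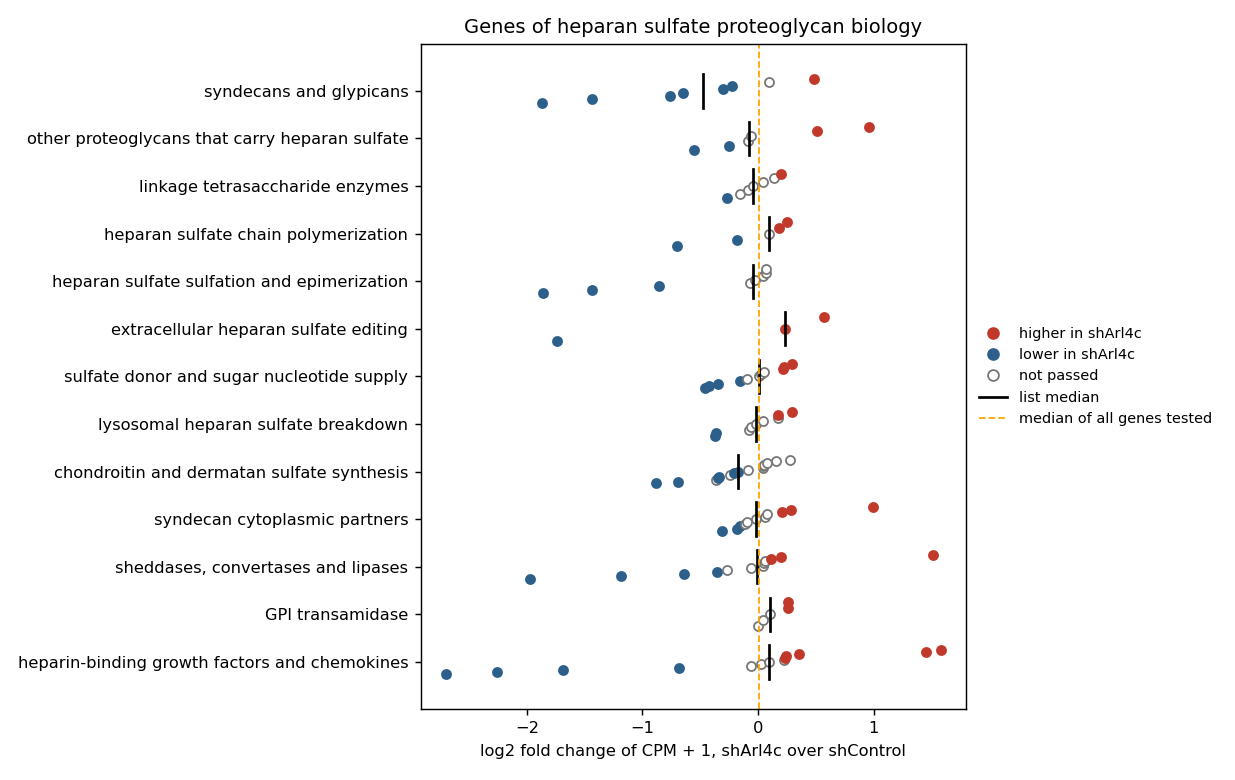
Log2 fold change of CPM + 1, shArl4c over shControl, for each tested gene of the 13 lists, 1 point per gene, filled where the adjusted p was under 0.05, with a bar at each list's median and a dashed line at the median of all genes tested. The syndecans and glypicans have a median of -0.48, and the medians of the other lists lie between -0.18 and 0.24.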

How the data were processed

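RNA was sequenced from mDE6 cells with a hairpin against Arl4c or a control hairpin, 3 libraries each. The authors deposited 1 table of CPM per gene, made with Trimmomatic 0.38, RSEM 1.3.0, Bowtie2 and edgeR on build GRCm39, per the submitters' processing notes, which give no order or settings. None of the sources used here says whether strand was used in counting. Of the members, Gpc1 and Sdc3 share exon positions with genes on the other strand. Of these, Ankmy1 over Gpc1 had 0.548 CPM in shArl4c and 0.739 CPM in shControl, and those over Sdc3 were not analysed here.

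Columns were mapped to groups by the hairpin in their names (shluc to shControl, shArt4c to shArl4c), not to single samples. All values (100%) were whole multiples of 1 read within 0.001 of a read, so reads were recovered, 12316770 to 14976113 per library, and edgeR 4.0.16 on these reads called 5378 genes. Symbols matched 21880 of 22032 identifiers. Lengths came from GENCODE M21, which is of an older build.

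The 14740 genes averaging 1 CPM or more were fitted as log2(CPM + 1) with limma 3.58.1 in R 4.3.3, with trend and robust moderation and no covariate. P-values were adjusted by Benjamini and Hochberg over all genes tested, with a threshold of 0.05. Fold changes on the log2 scale understate the change of low genes, and folds given as such are ratios of mean CPM. Alternatives were pseudocounts of 0.5 and 5, no filter or 5 CPM, TMM, median-of-ratios and quantile scaling, other limma settings, edgeR, DESeq2 1.42.0, other lengths and leaving out each library. The steps were tested on simulated counts.

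Named were all members, Arl4c, marker genes, any tested gene of the linkage, polymerization, sulfation, editing and tail partner lists, up to 3 genes by p of the other lists, and 3 genes most like Gpc4. Adam10, Mmp3, Notum, Gpld1, Gde1, Hgf and Pdgfb were added after their values were seen. The genes of lysosomal breakdown are not reported here beyond their place in the plot of the lists. Members and lists were chosen with earlier results of these data known.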

Additional observations from a re-analysis of the deposited data

How the results depend on the processing

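Sdc2, Sdc3, Gpc1, Gpc2, Gpc4 and Gpc6 stayed lower and Sdc4 stayed higher, each past the threshold, under all 17 alternatives. The log2 fold change ran from -1.92 to -1.77 for Gpc4, from -1.51 to -1.25 for Gpc6, from -0.81 to -0.71 for Sdc3, from -0.67 to -0.64 for Sdc2, from -0.33 to -0.25 for Gpc1, from -0.27 to -0.19 for Gpc2 and from 0.46 to 0.53 for Sdc4. The largest adjusted p of Gpc2 was 0.0445. Sdc1 passed with array weights (log2 fold change 0.17, limma adjusted p = 0.00301), and ran from 0.04 to 0.17 with 1 library left out, where its adjusted p was 0.000523 without shArl4c 3 and 0.191 to 0.685 otherwise. The count of changed members was 7 or 8, and that of all genes 4108 to 6885. Of the linkage genes, DESeq2 called 0, with 1 at an unadjusted p under 0.05, while edgeR called 2, and 1 to 3 passed with 1 library left out. Of the donor genes, DESeq2 called 4, and 4 to 7 passed with 1 library left out. With the filter at 5 CPM, 1 gene of the sulfation list passed, because Hs3st3a1 and Hs3st3b1 were no longer tested. With the longest transcript 5 members held their rank by level per length in shArl4c and 3 in shControl. With the coding length 5 did so in shArl4c and 7 in shControl. The glypican sum ratio was 0.543 with the longest transcript and 0.594 with the coding length. These alternatives, and those of the syndecan sum, were chosen after seeing the data. No paired analysis was possible because the columns could be tied to groups but not to numbered samples. Depth limits the genes with few reads, among them Gpc3, Sulf1, the 3-O-sulfotransferase genes, Extl1, Mmp3, Hgf and Gpld1.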
